A study of Homo sapiens with 2 samples.

Results

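The genes that lie around PCBP2 on chromosome 12 were examined in HepG2 cells in which TUC338, a noncoding transcript encoded inside the PCBP2 locus, had been targeted. A gene was a neighbour when the array annotation gave it as the single symbol of a probe set and its RefSeq locus in GRCh38.p14 had a midpoint on chromosome 12 between 43.4 and 63.5 Mb, which is about 10 Mb on each side of PCBP2. PCBP2 itself was left out. This gave 37 genes of the 2792 in the table, all protein-coding, with 14 on the centromeric side (negative distances) and 23 on the telomeric side (positive distances). RefSeq lists 304 protein-coding genes in the same window, including PCBP2, so the neighbours described here are a part of the region. The other 122 chromosome 12 genes of the table served as background.

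Some noncoding transcripts act on the chromosome they are made from and change the activity of genes beside them, and others act only after leaving their locus. The stretch of chromosome 12 around PCBP2 is rich in genes and holds the HOXC cluster, the type II keratin cluster, alpha-tubulin genes and many broadly expressed genes of transcription, RNA handling and metabolism. In hepatoma cells it also holds genes with a hepatic role, such as the endocytic receptor LRP1 and the zinc importer SLC39A5. RefSeq lists TUC338 as PCBP2-OT1, a locus of 590 bases inside that of PCBP2, and no probe set carries its name, so its own level is not given here.

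HepG2 is a human hepatoma cell line. The cells were grown on collagen and transfected with a locked nucleic acid (LNA, a chemically stabilised antisense oligonucleotide) directed at TUC338 or with a control LNA, and RNA from 1 array per condition was measured. There was no replicate culture, so every difference below compares 2 arrays, no test was possible, and an SD is the spread over the probe sets of a gene on those arrays, not between cultures. Of the hepatocyte markers listed to check the cell type, 5 had a named probe set. The others, among them AFP, APOA1, SERPINA1, TTR, KRT8 and KRT18, were not among the genes of the table, so this check is partial. ALB, APOA2, APOB and TF lay above the 99th percentile of gene level on these arrays, and FGG at the 91.5th.

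The array annotation is that of an exon array, with several probe sets per gene. The 37 neighbours had 3 to 98 probe sets each, 13 at the median and 639 in all. For each gene the log2 intensities were averaged over its probe sets, the control was subtracted from the knockdown, and the median of this difference over all 2792 genes, 0.28, was subtracted, because the knockdown array was brighter as a whole (median intensity 507 against 422). Differences are given on this scale, relative to the median gene, unless they are called deposited values. Levels are deposited log2 intensities. The host gene PCBP2 encodes a poly(rC)-binding protein that regulates mRNAs. Its level was 10.10 in the knockdown against 10.71 in the control, and its difference was -0.89 ± 0.35 (SD, 13 probe sets).

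Taken as a group, the neighbours did not share the lower level of PCBP2. Their differences ran from -0.93 to 0.69 with a median of -0.011. The median was 0.0018 for the other chromosome 12 genes. Of the 37 neighbours, 18 lay above the median gene and 19 below it. One neighbour, CTDSP2, was at least 1.5-fold higher, where 2.26% of all genes and 4.1% of the other chromosome 12 genes were. A further 2, TUBA1A and LRP1, were at least 1.5-fold lower, where 3.9% of all genes and 2.46% of the other chromosome 12 genes were. By the mean over probe sets no neighbour reached 2-fold in either direction, a size that 0.287% of all genes reached upwards and 0.358% downwards. By the median over probe sets TUBA1A was past 2-fold lower, at -1.345, a setting in which the share of all genes past 2-fold was not counted. Shares this small leave about 1 or 2 of 37 genes at the background rate, so the counts of neighbours past 1.5-fold are near the background.

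**Figure D1:**
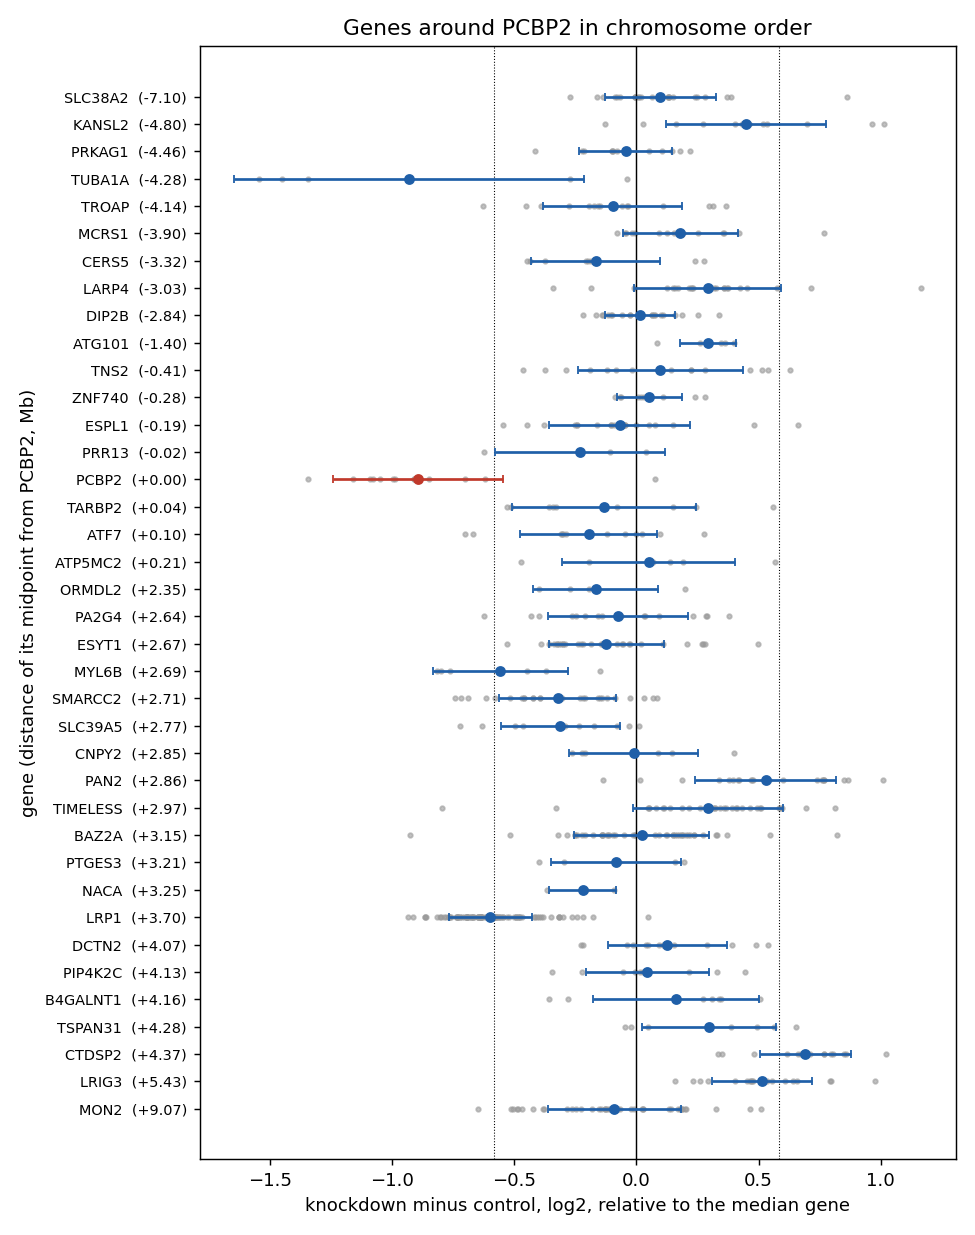
The 37 neighbours and PCBP2 (red) in chromosome order from top to bottom, with the distance of each midpoint from PCBP2 in Mb beside the symbol. The horizontal axis is knockdown minus control in log2 units relative to the median gene, grey points are probe sets, coloured points and bars are the mean and SD over probe sets, and dotted lines mark 1.5-fold. PCBP2 lies at -0.89 while the 7 genes within 1 Mb of it lie between -0.23 and 0.10.

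The genes nearest to PCBP2 are shown first, since a change that spreads from the locus would be looked for there. RefSeq lists 61 protein-coding genes within 1 Mb, without PCBP2, and only 7 of them were in the table. The values below do not cover the rest. The start regions of PCBP2 and of the closest neighbour on each side are printed below from RefSeq (GRCh38.p14), each 250 bases before to 50 bases after the annotated start. Capitals mark matches on either strand to GGGCGG (the GC box core) or CCAAT, and TATAAA and CACGTG were searched in the same way without a match in these windows. The windows are chr12:53451852-53452151, plus strand for PCBP2, chr12:53441484-53441783, plus strand for PRR13 and chr12:53500673-53500972, plus strand for TARBP2, for which RefSeq gives further starts and the first listed is shown.
PCBP2: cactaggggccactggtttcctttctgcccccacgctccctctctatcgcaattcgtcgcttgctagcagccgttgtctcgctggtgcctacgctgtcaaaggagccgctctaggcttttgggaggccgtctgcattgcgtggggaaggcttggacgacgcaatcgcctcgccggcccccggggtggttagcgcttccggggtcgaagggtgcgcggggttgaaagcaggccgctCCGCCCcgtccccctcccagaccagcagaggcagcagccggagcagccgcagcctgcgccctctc
PRR13: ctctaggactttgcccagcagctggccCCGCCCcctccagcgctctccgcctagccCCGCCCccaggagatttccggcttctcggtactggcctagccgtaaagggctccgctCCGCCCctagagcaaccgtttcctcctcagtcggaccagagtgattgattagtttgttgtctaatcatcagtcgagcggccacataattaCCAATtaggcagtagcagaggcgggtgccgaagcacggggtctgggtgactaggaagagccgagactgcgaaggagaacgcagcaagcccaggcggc
TARBP2: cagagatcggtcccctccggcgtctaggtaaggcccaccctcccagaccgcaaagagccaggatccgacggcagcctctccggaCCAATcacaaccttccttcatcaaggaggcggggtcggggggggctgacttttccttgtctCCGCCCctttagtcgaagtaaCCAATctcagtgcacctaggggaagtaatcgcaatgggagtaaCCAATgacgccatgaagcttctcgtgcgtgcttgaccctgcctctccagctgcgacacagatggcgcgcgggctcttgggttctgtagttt
All of them lie on the strand of PCBP2 and hold the GC box core, with 1 match in PCBP2, 3 in PRR13 and 1 in TARBP2. CCAAT was absent from the PCBP2 window, occurred once in PRR13 and 3 times in TARBP2. A match of letters is a description of the window only.

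PRR13, which encodes a small proline-rich protein, has its midpoint -22.4 kb from that of PCBP2, on the centromeric side, and was measured by 3 probe sets. Its levels were 8.85 and 8.80, knockdown first as for all pairs of levels below, with a difference of -0.23 ± 0.35. The probe sets disagreed, at -0.62, -0.11 and 0.040. TARBP2, the double-stranded RNA-binding partner of Dicer, lies 37.0 kb away on the other side, with levels of 8.28 and 8.13 and a difference of -0.13 ± 0.38 over 9 probe sets. Here 6 probe sets lay below the median gene, down to -0.53, and 3 above it, up to 0.56. ATF7, a bZIP transcription factor of the CREB and AP-1 families, follows at 0.10 Mb with levels of 8.35 and 8.26 and a difference of -0.195 ± 0.28, with 10 of 13 probe sets on the lower side. These 3 genes were the lowest of those within 1 Mb, and each differed from the median gene by less than the SD of its own probe sets. That SD is a spread over probe sets and does not give the uncertainty of the mean.

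The other 4 genes within 1 Mb lay close to the median gene. ATP5MC2, which encodes a c-ring subunit of mitochondrial ATP synthase, was the brightest of them, with levels of 10.335 and 10.001 and a difference of 0.050 ± 0.36 over 6 probe sets. ESPL1 encodes separase, the protease that opens cohesin at anaphase, and was the dimmest of all 37 neighbours at 7.86 and 7.64, with a difference of -0.068 ± 0.29 over 19 probe sets. ZNF740, a zinc finger protein, had levels of 8.38 and 8.05 and a difference of 0.052 ± 0.13 over 9 probe sets, the smallest SD among neighbours with at least 8 probe sets. TNS2, a tensin of focal adhesions, had levels of 8.49 and 8.10 and a difference of 0.098 ± 0.34 over 16 probe sets. The median of the 7 genes was -0.068, and the lowest of them, PRR13, was 0.66 above PCBP2 in log2 units (PCBP2 minus PRR13 was -0.66).

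That median depended on dim probe sets. When only probe sets at or above the median level of all probe sets (8.84) were kept, the 7 genes had a median of -0.24, against -0.016 for the 30 neighbours beyond 1 Mb and 0.013 for 107 other chromosome 12 genes. Under this setting TARBP2 was at -0.50 with 2 probe sets and PRR13 at -0.35 with 2. ATF7 lay at -0.24 with 4 and ATP5MC2 at 0.17 with 5. The value of ESPL1, -0.53, rested on 1 of its 19 probe sets and that of ZNF740, -0.048, on 1 of 9, and TNS2 was at 0.11 with 3. Only 18 probe sets of the 7 genes passed this level and 57 did not. The 18 had a median of -0.12 and the 57 one of -0.017, where the medians over all genes were -0.044 for probe sets above the level and 0.0093 for those below. PCBP2, with 12 of 13 probe sets above the level, stayed at -0.87.

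**Figure D2:**
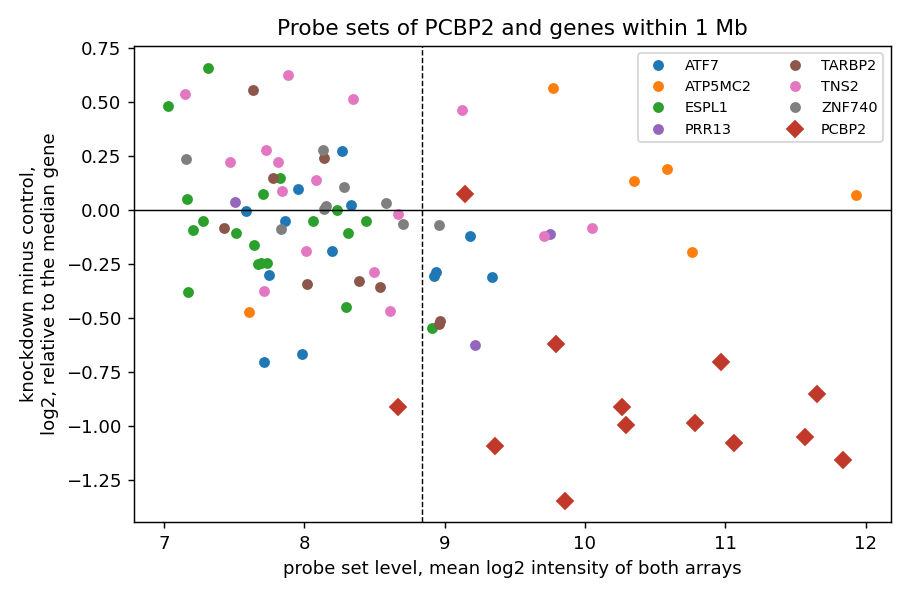
Each point is a probe set of PCBP2 (red diamonds) or of a gene within 1 Mb of it (coloured circles), with its level, the mean log2 intensity of both arrays, on the horizontal axis and its knockdown minus control difference in log2 units relative to the median gene on the vertical axis. The dashed line is the median level of all probe sets, 8.84; 18 probe sets of the neighbours lie to its right and 57 to its left, while 12 of 13 PCBP2 probe sets lie to its right.

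The remaining neighbours are grouped by what their products do. Lists for 8 roles covered 26 of the 37 genes, and 11 genes stood in no list and were placed by role afterwards. Genes of chromatin and DNA replication had differences on both sides of the median gene. SMARCC2, a core subunit of SWI/SNF remodelling complexes, had levels of 8.57 and 8.60 and a difference of -0.32 ± 0.24, and 24 of 27 probe sets were on the lower side. TIMELESS, which protects replication forks, had levels of 8.77 and 8.20 and a difference of 0.29 ± 0.31, above it at 29 of 31. BAZ2A, of the nucleolar remodelling complex, lay at 0.021 ± 0.28 over 49 probe sets, and TROAP, a protein of the mitotic spindle, at -0.098 ± 0.29 over 15. With ESPL1, the 5 measured genes of this list had a median of -0.068, and none of them reached 1.5-fold. The transcription factors measured were ZNF740 and ATF7 alone, with none past 1.5-fold.

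KANSL2 and MCRS1, which encode subunits of the NSL histone acetyltransferase complex, were in no list. KANSL2 had levels of 8.65 and 7.92 and a difference of 0.45 ± 0.33, above the median gene at 12 of 13 probe sets, while MCRS1 had levels of 8.87 and 8.41 and a difference of 0.18 ± 0.24, above it at 9 of 14. The midpoints of these genes lie -4.80 and -3.90 Mb from PCBP2. Relative to the median gene, both were thus higher in the knockdown than in the control, by 1.36-fold and 1.13-fold.

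Among genes of RNA handling and translation, PAN2, the catalytic subunit of the PAN2-PAN3 poly(A) deadenylase, stood highest. It was in no list. Its levels were 8.27 and 7.46, and its difference of 0.53 ± 0.29 was 1.44-fold, with 20 of 21 probe sets above the median gene. LARP4, a La-related protein that binds poly(A) and stabilises mRNA, had levels of 9.65 and 9.08 and a difference of 0.29 ± 0.30, with 19 of 22 probe sets above. PA2G4, a growth-regulated protein of ribosome biogenesis, lay at -0.075 ± 0.29 over 16 probe sets. NACA, the alpha subunit of the nascent polypeptide-associated complex, lay on the lower side in each of 3 probe sets, with levels of 11.01 and 10.95 and a difference of -0.22 ± 0.14. Near-identical copies of NACA exist in the genome, so its value is uncertain. The list itself, with TARBP2, had 4 measured genes, a median of -0.10 and none past 1.5-fold.

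Receptors, ligands and kinases held 1 of the lower genes. LRP1, a large endocytic receptor that clears lipoprotein remnants and protease complexes in liver, had levels of 9.28 and 9.59, the dimmer in the knockdown. Its difference was -0.60 ± 0.17, which is 1.52-fold lower, and 97 of its 98 probe sets lay below the median gene, between -0.94 and 0.048. In all, 102 of the 2792 genes had a mean as low or lower. In deposited values LRP1 was also lower, by 1.25-fold. LRIG3, a transmembrane protein with leucine-rich repeats, went the other way: it was among the dimmest neighbours at 8.21 and 7.42, and all of its 19 probe sets lay above the median gene, with a difference of 0.51 ± 0.21. PRKAG1, a regulatory subunit of the energy sensor AMPK, lay at -0.044 ± 0.19 over 12 probe sets. The list of 3 measured genes had a median of -0.044.

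Genes of the cytoskeleton held the lowest neighbour. TUBA1A, an alpha-tubulin, had levels of 10.54 and 11.19 and a difference of -0.93 ± 0.72. Its 5 probe sets fell apart into 3 at -1.55, -1.45 and -1.34 and 2 near the median gene, at -0.27 and -0.038. The median over the 5 gave -1.345. The pair near the median gene were the brightest, with control levels of 11.51 and 13.36, so the brightest probe set alone gave 0.047 on its own scale. Alpha-tubulin genes are nearly identical in coding sequence, and RNA of the paralogs TUBA1B and TUBA1C may have reached these probe sets, which was not tested, so the value of TUBA1A is uncertain. MYL6B, a myosin light chain, had each of 6 probe sets on the lower side, with levels of 9.17 and 9.45 and a difference of -0.56 ± 0.28, under 1.5-fold at 1.47-fold. MYL6B passed 1.5-fold as a median over probe sets (-0.61), by the brightest one (-0.71) and over its 4 probe sets at or above the median level (-0.69). In these settings 4.48%, 6.95% and 5.49% of all genes were at least 1.5-fold lower. In deposited values it was at -0.27. DCTN2, the p50 subunit of dynactin, lay at 0.13 ± 0.24 over 13 probe sets. Of the 4 measured genes in the list, TNS2 included, only TUBA1A was at least 1.5-fold lower, where 3.9% of all genes were. The median of the 4 was -0.23, with 2 above the median gene and 2, TUBA1A and MYL6B, below it.

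CTDSP2 was the highest neighbour, and it stood in no list. It encodes a small phosphatase of the RNA polymerase II C-terminal domain. Its levels were 10.11 and 9.14, the brighter in the knockdown. The difference of 0.69 ± 0.19 was 1.62-fold, all of its 15 probe sets lay above the median gene, between 0.33 and 1.02, and 35 of the 2792 genes had a mean as high or higher. In deposited values it was 1.97-fold higher. Its midpoint is 4.37 Mb from PCBP2. TSPAN31, a tetraspanin whose midpoint lies 85.7 kb from that of CTDSP2, had levels of 8.55 and 7.97 and a difference of 0.30 ± 0.28, with 6 of 8 probe sets above the median gene.

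The start regions of the 3 neighbours past 1.5-fold are shown so that the genes that differed most can be set beside PCBP2. They come from the same table, with capitals as above, at chr12:57846680-57846979, minus strand for CTDSP2, chr12:57128233-57128532, plus strand for LRP1 and chr12:49189031-49189330, minus strand for TUBA1A.
CTDSP2: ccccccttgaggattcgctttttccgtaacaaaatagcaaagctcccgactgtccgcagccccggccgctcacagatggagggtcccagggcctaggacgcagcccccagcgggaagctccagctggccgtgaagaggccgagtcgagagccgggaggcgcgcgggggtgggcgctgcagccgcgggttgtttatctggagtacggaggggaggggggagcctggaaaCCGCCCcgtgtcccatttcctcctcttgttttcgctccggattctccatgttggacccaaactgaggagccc
LRP1: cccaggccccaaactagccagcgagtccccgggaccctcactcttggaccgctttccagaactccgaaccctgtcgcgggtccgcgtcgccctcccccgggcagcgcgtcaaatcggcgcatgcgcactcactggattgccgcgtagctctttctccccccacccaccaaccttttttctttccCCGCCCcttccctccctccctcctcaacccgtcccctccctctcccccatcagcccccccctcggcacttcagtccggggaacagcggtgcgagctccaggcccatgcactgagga
TUBA1A: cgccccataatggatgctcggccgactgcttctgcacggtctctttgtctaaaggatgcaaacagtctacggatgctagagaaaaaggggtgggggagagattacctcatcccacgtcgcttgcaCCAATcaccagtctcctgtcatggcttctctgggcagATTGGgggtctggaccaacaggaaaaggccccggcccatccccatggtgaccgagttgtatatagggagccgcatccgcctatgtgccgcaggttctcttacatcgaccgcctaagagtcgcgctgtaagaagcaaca
CTDSP2 and LRP1 each held 1 GC box core and no CCAAT, as PCBP2 did, although CTDSP2 was higher and LRP1 lower in the knockdown. TUBA1A held 2 CCAAT matches and no GC box core. Across the 33 neighbours with a window, 24 (72.7%) held GGGCGG. The shares were 71.6% of 2372 windows of genes among the 2792 measured and 44.6% of 27305 RefSeq windows of the same length. The first listed start of each gene was taken. CCAAT was found in 15 of the 33 (45.5%, against 35.5% and 35.7%), CACGTG in 7 (21.2%, against 11.2% and 7.43%) and TATAAA in 0 (against 4.64% and 12%).

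CTDSP2 and LRP1 also host microRNAs on their own strand, which is not particular to the neighbours past 1.5-fold. KANSL2 and TNS2 host a microRNA on their own strand too, and TSPAN31 holds one on the opposite strand. RefSeq lists 2 mature strands for each of CTDSP2 and LRP1 on GRCh38.p14. One of each is given to show that the hosts carry different seeds, bases 2 to 8, in capitals, and hsa-miR-26a-2-3p and hsa-miR-1228-5p are not shown. The strands given are hsa-miR-26a-5p in CTDSP2 (chr12:57824658-57824679, minus strand) and hsa-miR-1228-3p in LRP1 (chr12:57194555-57194574, plus strand).
hsa-miR-26a-5p: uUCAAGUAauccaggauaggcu
hsa-miR-1228-3p: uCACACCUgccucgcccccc
The levels of these microRNAs were not analysed here, and the values above are those of the host genes.

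Metabolic enzymes lay near the median gene. CERS5, a ceramide synthase, had levels of 9.001 and 8.88 and a difference of -0.17 ± 0.26 over 9 probe sets. ORMDL2, a negative regulator of the enzyme that starts sphingolipid synthesis, was in no list and had levels of 8.71 and 8.60 and a difference of -0.17 ± 0.26 over 4. B4GALNT1, a ganglioside synthase, lay at 0.16 ± 0.34 over 7 probe sets. The 3 measured genes of the metabolic list, with ATP5MC2, had a median of 0.050 and none past 1.5-fold. PIP4K2C, a phosphoinositide kinase outside the lists, lay at 0.044 ± 0.25 over 9 probe sets.

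The membrane transporters measured were SLC38A2 and SLC39A5. SLC38A2, a sodium-coupled carrier of small neutral amino acids, was the brightest neighbour at 12.54 and 12.16, with a difference of 0.097 ± 0.23 over 25 probe sets. SLC39A5, a zinc importer of hepatocytes and gut, had levels of 8.64 and 8.67 and a difference of -0.31 ± 0.24, 10 of 11 probe sets being on the lower side.

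Genes of membrane traffic and autophagy differed little. ATG101, a subunit of the complex that starts autophagy, had levels of 8.90 and 8.32 and had each of 6 probe sets on the higher side, with a difference of 0.29 ± 0.11. ESYT1, a tether between the endoplasmic reticulum and the plasma membrane, lay at -0.12 ± 0.24 with 24 of 31 probe sets below, and MON2, a regulator of Golgi to endosome traffic, at -0.091 ± 0.27 over 42. None of these 3 reached 1.5-fold. The last 3 genes were in no list: DIP2B (0.016 ± 0.14 over 22 probe sets), PTGES3, the p23 co-chaperone of HSP90 (-0.083 ± 0.27 over 5), and CNPY2, a luminal protein of the endoplasmic reticulum (-0.011 ± 0.26 over 6).

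**Figure D3:**
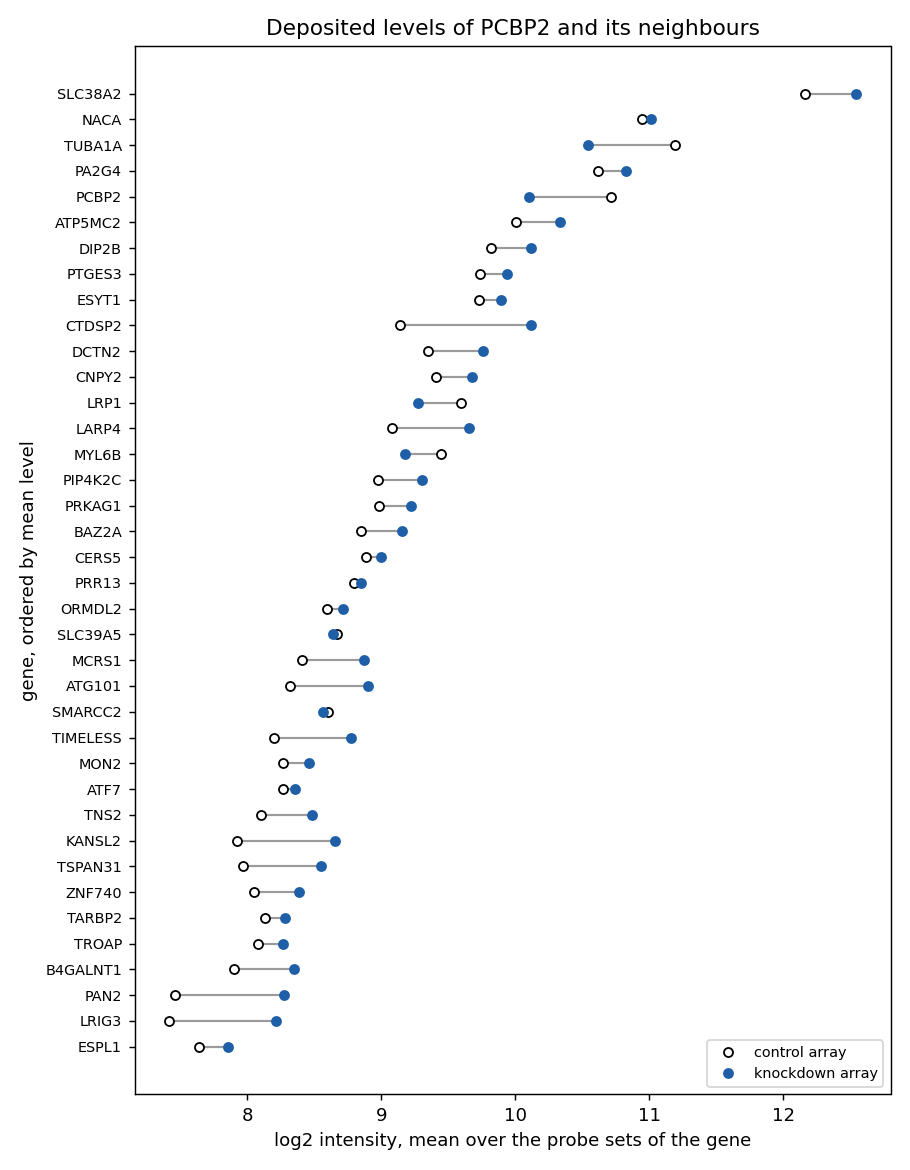
Deposited log2 intensity of each of the 37 neighbours and PCBP2, averaged over the probe sets of the gene, on the control array (open circles) and the knockdown array (filled circles), ordered by mean level. In deposited values 32 of the 37 neighbours were brighter in the knockdown; TUBA1A, LRP1, MYL6B, SMARCC2, SLC39A5 and PCBP2 were dimmer.

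The offset between the arrays bears on how these values read. In deposited values 32 of the 37 neighbours (86.5%) were brighter in the knockdown, but so were 83.0% of all genes and 83.6% of the other chromosome 12 genes. The 5 that were dimmer were TUBA1A, LRP1, MYL6B, SMARCC2 and SLC39A5. On that scale 4 neighbours were past 1.5-fold upwards, CTDSP2, PAN2, LRIG3 and KANSL2, where 13.0% of all genes and 18.0% of the other chromosome 12 genes were. Downwards 1 was, TUBA1A, where 0.967% and 0.82% were. The split of 1 higher to 2 lower given above therefore turned with the choice of zero. At the brightest probe set of each gene the same 4 neighbours were past 1.5-fold upwards relative to the median gene, where 5.19% of all genes were. With probe sets at or above the median level CTDSP2, PAN2 and KANSL2 were, beside 2.91% of all genes. The values of PAN2 and KANSL2 then rested on 2 of 21 and 2 of 13 probe sets, and that of CTDSP2 on 12 of 15. With medians over probe sets CTDSP2 alone was past 1.5-fold upwards, beside 2.4%.

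Distance from PCBP2 was then set against the difference. The 7 genes within 1 Mb had a median of -0.068 and a range of -0.23 to 0.098, and the 30 beyond it a range of -0.93 to 0.69. The only gene between 1 and 2 Mb, ATG101, was at 0.29. The 26 genes between 2 and 5 Mb had a median of -0.027, and the 3 beyond 5 Mb, SLC38A2, LRIG3 and MON2, one of 0.097. All 3 neighbours past 1.5-fold lay between 2 and 5 Mb from PCBP2, where most of the genes lie. Over the 37 genes Spearman's rho of the difference with absolute distance was 0.32 and Pearson's r was 0.14. These are given as a description, because the genes share the same 2 arrays. On the centromeric side rho was 0.15 over 14 genes and on the telomeric side 0.47 over 23. Without the 3 thinly spread genes beyond 5 Mb it was 0.29 over 34, and among the 19 genes at or above the median level it was 0.21. It was 0.30 over the 30 genes beyond 1 Mb. Other settings gave higher values: 0.37 with the brightest probe set, 0.36 with probe sets at or above the median level and 0.38 without alpha-tubulin genes. Over the 122 other chromosome 12 genes rho was -0.26.

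Neighbours at the window edges resembled the genes just outside it. SLC38A2, the outermost on the centromeric side at -7.10 Mb, was at 0.097, and the next gene outward, PPHLN1 at -11.08 Mb, at 0.11. MON2, the outermost on the telomeric side at 9.07 Mb, was at -0.091, and SRGAP1 at 10.54 Mb at -0.051. Further outward, KIF21A at -14.10 Mb was at 0.14, XPOT at 10.96 Mb at 0.43 and TBK1 at 11.01 Mb at 0.29. Of all genes, 63.1% lay within 0.25 of the median gene, so close values in such pairs say little about the edges.

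**Figure D4:**
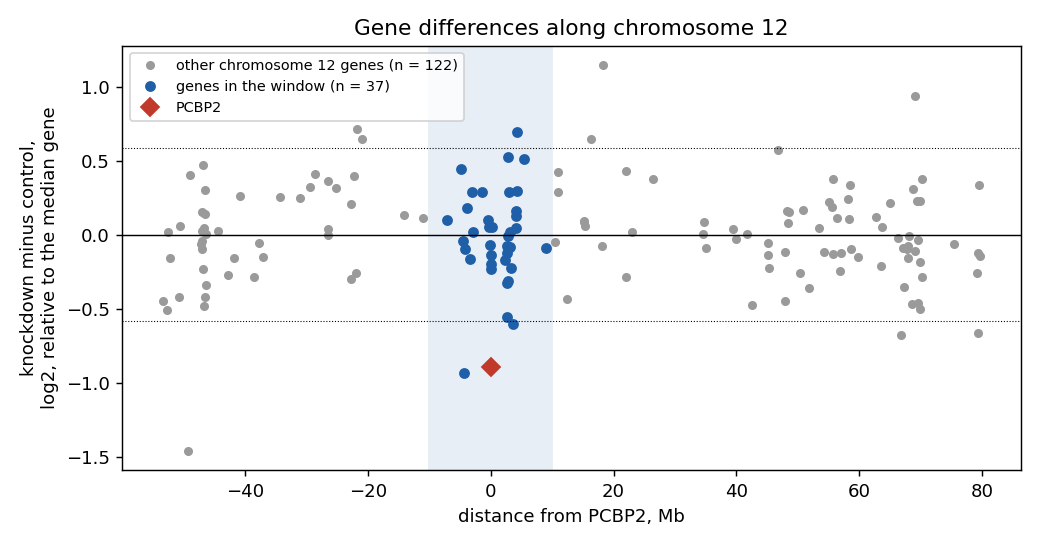
Knockdown minus control difference in log2 units relative to the median gene (vertical axis) against distance from PCBP2 in Mb (horizontal axis) for all chromosome 12 genes of the table, with the window shaded, its 37 genes in blue, 122 others in grey and PCBP2 as a red diamond; dotted lines mark 1.5-fold. The 7 genes within 1 Mb of PCBP2 lie between -0.23 and 0.10, and the closest of them, PRR13, TARBP2 and ATF7, are all below 0. Differences as large as those in the window also occur far from it.

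In steps of 10 Mb along the chromosome, the medians of the window were 0.034 on the centromeric side (14 genes) and -0.075 on the telomeric side (23 genes). Elsewhere on chromosome 12 the medians of such steps ran from -0.29 over 6 genes to 0.32 over 12 genes. The first of these steps lay at distances of -60 to -50 Mb and the second at -30 to -20 Mb. Steps near PCBP2 were therefore within the range of the other steps, several of which hold few genes.

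Genes beside each other could still differ. A run on the telomeric side, from ORMDL2 at 2.35 Mb to CNPY2 at 2.85 Mb, held 7 genes that were all below the median gene, and PAN2 at 2.86 Mb was above it. Within this run PA2G4 and ESYT1 lay 27.2 kb apart and differed by 0.048, and SMARCC2 and SLC39A5 lay 58.0 kb apart and differed by 0.0098. MYL6B lay 18.8 kb from ESYT1 and was lower by a difference of 0.435. CNPY2 and PAN2 had midpoints 12.4 kb apart, the closest of any pair of neighbours, and differed by 0.54, the most among the 14 adjacent pairs with midpoints within 0.1 Mb. The median difference over those 14 pairs was 0.12, against 0.27 over all 666 pairs of neighbours and 0.33 over 35 such adjacent pairs elsewhere on chromosome 12. These pairs share genes and arrays, and the run was picked out after its values were seen.

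**Figure D5:**
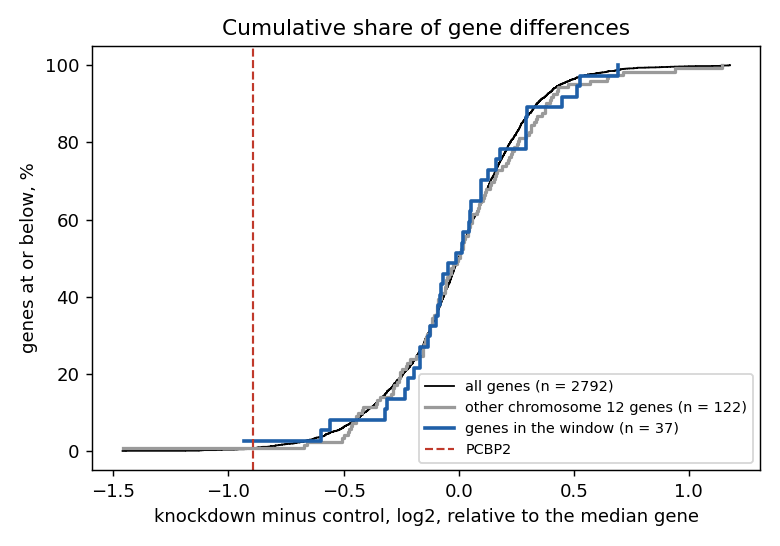
Cumulative share of genes, in percent, at or below each knockdown minus control difference (log2, relative to the median gene) for the 37 neighbours (blue), 122 other chromosome 12 genes (grey) and all 2792 genes (black), with PCBP2 as a dashed red line. The curves run close together, with medians of -0.011 for the neighbours and 0.0018 for the other chromosome 12 genes, and 1 neighbour, TUBA1A, lies below PCBP2.

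What the neighbours shared beyond position was limited. Their median level was 8.82, the same as that of all genes, with 19 at or above it and 18 below. The 19 brighter genes had a median difference of -0.044 and the 18 dimmer ones one of 0.075, and rho of the difference with level was -0.28 over the 37, against 0.046 over all genes. On the strand of PCBP2, 16 neighbours had a median of -0.072, and 17 on the opposite strand one of 0.050, with 4 whose strand was not given in the tables used. The median SD over probe sets was 0.265 for the neighbours and for all genes. It was smallest for ZNF740, DIP2B (0.14) and LRP1 (0.17), and largest for TARBP2 (0.38), TNS2 (0.34) and KANSL2 (0.33), among neighbours with at least 8 probe sets.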

How the data were processed

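HepG2 RNA from 1 knockdown and 1 control array was compared. The authors deposited 1 table of 45200 probe sets as natural log intensities; its scale was settled from the values, whose exponentials under 2000 fell most often on multiples of 0.5 plus a fixed residue (1154 and 1167 values in the fullest of 500 bins, against bin means of 82.7 and 84.2). The values were converted to log2. Normalization, software, build and the rule that chose the genes of the table were not given in the sources used here. Of the probe sets, 42575 had 1 gene symbol, 1055 had several and were left out, and 331 older symbols were updated through RefSeq (GRCh38.p14). Distances are between RefSeq locus midpoints. Differences were averaged over probe sets, counted at 1.5-fold and 2-fold, and tried under 11 alternatives. The gene summaries were tested on simulated data. The neighbours and role lists were chosen with earlier results of these data known. Named by rule were all genes within 1 Mb, the extremes of difference and SD, up to 4 genes of each list and the window edges; the others were added so that every neighbour has a value. The table gives no detection calls, so dim probe sets may hold background, and 1 array per condition limits the precision. Python 3.11.15, pandas 2.3.3, SciPy 1.17.1 and statsmodels 0.14.6 were used.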

Additional observations from a re-analysis of the deposited data

How the results depend on the processing

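No alternative had a replicate to leave out, and no paired analysis was possible because each condition has 1 array. Values were counted as moved at a change of at least 0.1 for medians and rho, or over 1.5 times for counts. In deposited values the median of the neighbours moved to 0.27, that within 1 Mb to 0.215, and the counts past 1.5-fold to 4 higher and 1 lower, because the offset of 0.28 between the arrays was kept. With the brightest probe set of each gene 4 were higher (5.19% of all genes), and TUBA1A turned to 0.047. With probe sets at or above the median level 3 were higher, CTDSP2, PAN2 and KANSL2 (2.91% of 2477 genes), and 3 were lower, TUBA1A, LRP1 and MYL6B (5.49%). PAN2 and KANSL2 then rested on 2 probe sets each. The median within 1 Mb moved to -0.24, and only 18 probe sets then remained for those 7 genes. With genes at or above the median level rho was 0.21 over 19 genes. Without the alpha-tubulin genes (no keratin or HOXC gene was among the neighbours) 1 was lower. Medians over probe sets gave 3 lower in place of 2, with MYL6B the third (4.48% of all genes). That count stayed within the limit, so medians over probe sets moved no summary value. Quantile normalization, loess, a minimum of 4 probe sets, 5-prime ends and a 5 Mb window moved none of the 6 summary values by these limits. Among 185 values of single neighbours, 32 moved by more than the SD of the gene, 24 of them in deposited values and 8 with the brightest probe set, and 1 reversed. Where the median gene was kept at 0, 30 of the 37 kept their sign under the alternatives tried for single genes, bright probe sets included, and ZNF740, PRKAG1, TUBA1A, PA2G4, BAZ2A, PTGES3 and DCTN2 did not.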
